A study of Mus musculus with 40 samples.

Results

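Midbrain mRNA from mice given MPTP, SUEHP and the PPARγ inhibitor T0070907 (MPTP-SU+T) was compared with midbrain mRNA from mice given MPTP and vehicle (MPTP-Veh). The members were chosen by the tissue and treatment in the sample labels, which gave 4 libraries against 4, or 8 of the 40 libraries of the series. All mice were male C57BL/6N mice aged 8 weeks. In both groups MPTP was injected intraperitoneally at 20 mg/kg, 4 times at intervals of 2 h. The MPTP-SU+T mice then received SUEHP, a herbal pharmacopuncture preparation injected at the acupoint GB34, 2 times per week from 1 week after the last MPTP injection, for 4 injections in total. With it they received T0070907 intraperitoneally at 5 mg/kg, which the sample labels describe as a co-treatment and the study's methods as a pretreatment. MPTP-Veh mice received MPTP and, by the study's methods, saline at GB34. No group received T0070907 without SUEHP, so its action without SUEHP was not measured. The remaining midbrain groups were Con, without MPTP, MPTP-SU, given MPTP and SUEHP, and MPTP-SU+S, given in addition the CB1 antagonist SR141716A at 3 mg/kg (spelled SR141714A in the labels). By the study's methods T0070907 and SR141716A were dissolved in ethanol, Alkamuls and saline. No injection of this solvent is described for MPTP-SU or MPTP-Veh, so drug and solvent cannot be told apart. Nothing in the labels ties a library to a litter or a day, and p-values therefore measure the spread between libraries, which may be technical.

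MPTP is converted in the brain to MPP+, which enters dopaminergic neurons through the dopamine transporter and blocks complex I of the mitochondrial respiratory chain. The dopaminergic neurons of the substantia nigra, in the midbrain, are the cells best known to be lost in this model of Parkinson's disease. PPARγ is a nuclear receptor that pairs with a retinoid X receptor, binds direct repeats of a short DNA motif and controls genes of fatty acid handling and inflammation, and T0070907 blocks its activation by ligands. In bulk midbrain RNA, fewer cells of a type and less RNA per cell cannot be told apart.

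MPTP-Veh replicate 4 stood apart from every other midbrain library, and most results are given with and without it. A log2 fold change or adjusted p-value given for a single fit is from all libraries unless stated otherwise. Its mitochondrially encoded genes held 1.35% of the counts, against 12.7 to 16.8% in the MPTP-SU+T libraries and 10.6% to 15.9% in MPTP-Veh replicates 1 to 3. It lay alone at one end of a first principal component that held 40.0% of the variance of the 20 midbrain libraries. Total counts ranged from 14622817 to 16514934 in MPTP-SU+T and from 11958200 to 15986455 in MPTP-Veh. Transcripts of other organs also separated the groups. The summed level of 26 liver genes was 2.90 to 4.21 CPM in MPTP-SU+T and 32.1 to 48.9 CPM in MPTP-Veh replicates 1 to 3, and it was 538 CPM in replicate 4. Of the 26 genes, 14 had 0 counts in all MPTP-SU+T libraries. The liver list holds a further gene, Ttr, transthyretin, which was left out of the sum because the choroid plexus also makes it. Ttr had 821 counts over MPTP-SU+T, 465 over MPTP-Veh and 29291 over Con, and with it the sums were 4.36 to 40.1 CPM in MPTP-SU+T and 41.5 to 553 CPM in MPTP-Veh, separated by a narrow margin. Without Ttr, Con libraries, at 23.9 to 58.4 CPM, lay with MPTP-Veh, whereas MPTP-SU at 2.79 to 4.76 CPM and MPTP-SU+S at 3.17 to 4.24 CPM lay with MPTP-SU+T. Summed over 11 lung genes the range was 0.580 to 1.36 CPM in MPTP-SU+T and 3.37 to 45.9 CPM in MPTP-Veh. Anterior pituitary genes, 12 in number, summed to 785 CPM in MPTP-Veh replicate 1, to 7.71 to 20.0 CPM in the other MPTP-Veh libraries and to 0.258 to 6.01 CPM in MPTP-SU+T. The part of these differences in the results that follow was not tested.

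**Figure D1:**
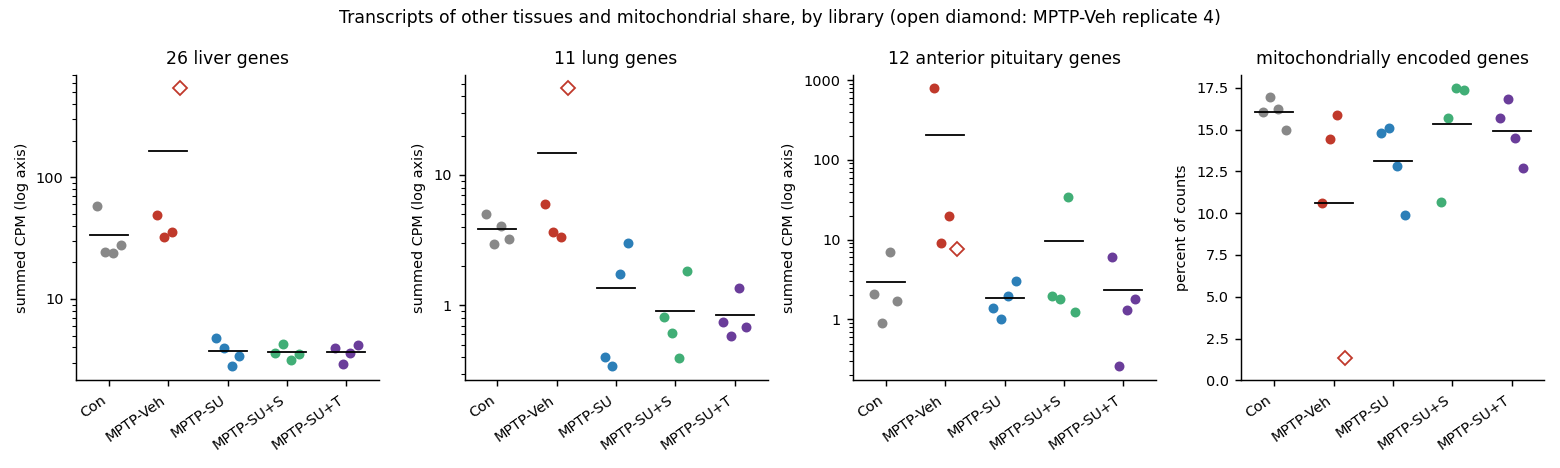
Summed CPM of 26 liver (without Ttr), 11 lung and 12 anterior pituitary genes on log axes, and the percent of counts on the 13 mitochondrially encoded genes, for each of the 20 midbrain libraries by group. Points are libraries, black lines are group means and the open diamond is MPTP-Veh replicate 4. The liver sums of the 12 SUEHP-treated libraries all lie below 5 CPM, and those of the 8 Con and MPTP-Veh libraries all lie above 20 CPM.

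With all libraries, 632 of 16629 genes tested (3.8%) passed the threshold for differentially expressed genes (DEGs), an adjusted p-value below 0.05 with a fold change above 1.5. Of these, 95 (0.571%) were higher and 537 (3.23%) were lower in MPTP-SU+T than in MPTP-Veh. Without MPTP-Veh replicate 4 the count was 137 of 16831 genes (0.814%), with 40 higher (0.238%) and 97 lower (0.576%). The threshold was met in both fits by 114 genes, 22 higher and 92 lower, and these are described first. The 4 and 4 libraries did not overlap for 111 of them, the exceptions being TrnP, Cbln4 and Tex15. Genes named for the smallest p-values among the 114 were taken only from those 111. For such genes the lack of overlap is no further support. For 620 of the 632 DEGs, a count not made over all genes tested, replicate 4 was the MPTP-Veh library farthest from MPTP-SU+T among those 4. All 518 DEGs that were lost without it kept their sign, and 513 of them had an unadjusted p-value below 0.05 there, but only 103 still exceeded a 1.5-fold change. Over all genes tested, CPM values of the 4 and 4 libraries did not overlap for 2645 genes (15.9%). The DEG count depended on how the model was fitted as well. In a model of the 8 libraries alone it was 0 of 15719 genes, of which 1978 had an unadjusted p below 0.05, and without replicate 4 in those 2 groups alone it was 35 of 15922 genes. With the other tools it was 1615 in DESeq2 and 107 in limma-voom for all libraries, and 199 and 127 without replicate 4. Leaving out MPTP-SU+T replicate 1, 2 or 4 brought the count with all other libraries to 3, 17 and 3.

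**Figure D2:**
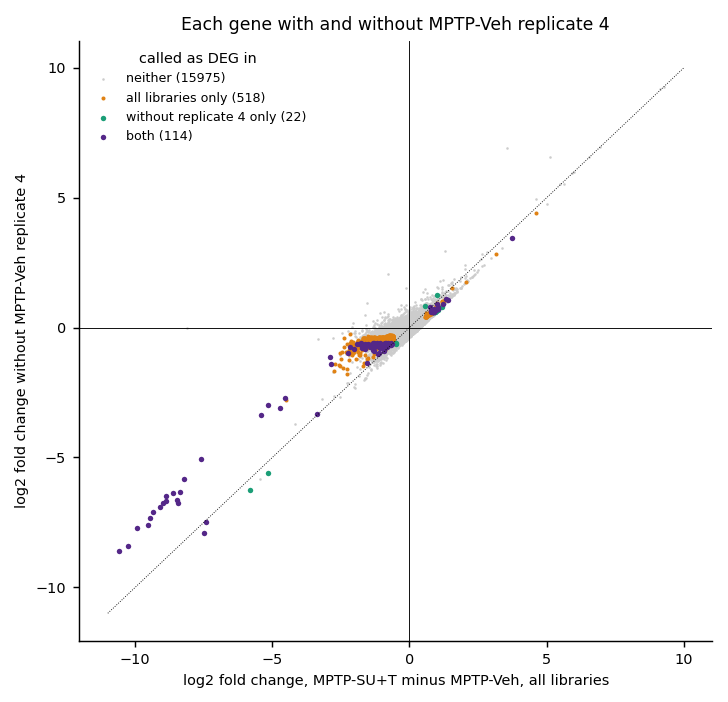
Log2 fold change of MPTP-SU+T minus MPTP-Veh for each gene tested in both fits, with all libraries on the x axis and without MPTP-Veh replicate 4 on the y axis. Colours mark genes called as DEGs in both fits (114), with all libraries only (518), without replicate 4 only (22) or in neither, and the dotted line marks equal values. The 518 genes called with all libraries only keep their sign on the y axis.

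With all libraries, the gene with the smallest p-value was lower in MPTP-SU+T, and without replicate 4 Alb and Atp6v0c-ps2, described below, had smaller ones. That gene was ND6, the complex I subunit encoded on the light strand of mitochondrial DNA. It measured 38.7, 37.5, 44.2 and 32.7 CPM in the 4 MPTP-SU+T libraries and 123, 96.4, 78.1 and 149 CPM in the 4 MPTP-Veh libraries. Every MPTP-SU+T library lay below every MPTP-Veh library. Its log2 fold change was -1.54 ± 0.18 (SE) with adjusted p = 0.000949 in edgeR's quasi-likelihood test with Benjamini-Hochberg adjustment, which is used throughout, and -1.37 ± 0.16 with adjusted p = 0.000191 without replicate 4. The other 12 protein-coding mitochondrial genes were not called. Of 13 tested, those 12 had a log2 fold change above 0 with all libraries, where the median of the list was 0.45. Without replicate 4 the median was 0.078 and ND6 was again the only DEG of the list. TrnP, the proline tRNA, is encoded on the same strand as ND6 and was picked out after its values were seen. It measured 9.65, 5.74, 5.78 and 4.21 CPM in MPTP-SU+T and 18.1, 14.6, 8.61 and 149 CPM in MPTP-Veh, and fell in both fits, with log2 fold changes of -2.90 with all libraries and -1.12 without replicate 4, although its ranges overlapped.

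The genes that fell with the smallest p-values included some that act on RNA or chromatin, which was not tested for enrichment. Hnrnph3, a heterogeneous nuclear ribonucleoprotein that binds pre-mRNA, measured 26.3, 27.2, 29.3 and 26.9 CPM in MPTP-SU+T and 49.7, 42.7, 49.1 and 59.9 CPM in MPTP-Veh. The groups did not overlap, and the log2 fold change was -0.87 ± 0.12 (SE) with adjusted p = 0.00376, or -0.78 ± 0.10 with adjusted p = 0.000883 without replicate 4. Hnrnpm, of the same family, measured 67.0, 74.3, 90.0 and 73.2 CPM in MPTP-SU+T against 146, 117, 122 and 362 CPM in MPTP-Veh. The MPTP-Veh mean rested strongly on replicate 4, and the log2 fold change went from -1.29 to -0.75 when it was left out (adjusted p = 0.0232 and 0.00135). Rbm17, a component of the spliceosome, fell by 0.86 on the log2 scale with all libraries (adjusted p = 0.0181) and by 0.61 without replicate 4 (adjusted p = 0.00146). Nsrp1, a splicing regulator of nuclear speckles, fell by 0.82 and 0.73. Cfdp1, a chromatin protein, fell by 0.99 and 0.75, and Hmgn5, which binds nucleosomes, by 1.33 and 0.84. Ncl encodes nucleolin, the major protein of the nucleolus, and measured 276, 289, 311 and 248 CPM in MPTP-SU+T and 487, 392.1, 392.2 and 1075 CPM in MPTP-Veh, a log2 fold change of -1.06 ± 0.22 (SE) with adjusted p = 0.0246 and of -0.59 ± 0.081 with adjusted p = 0.00105 without replicate 4. Each of these 7 genes was lower in all 4 MPTP-SU+T libraries than in any MPTP-Veh library. For those named by p-value this was a condition of the choice. Over the whole list of 47 hnRNP and SR splicing factors, 5 fell and none rose with all libraries, namely Hnrnph3, Hnrnpm, Hnrnpa1 (-0.62, or -0.50 without replicate 4), Rbm25 (-0.75, or -0.36 without replicate 4) and Luc7l3 (-0.76, or -0.33 without replicate 4). Without replicate 4, 2 fell, 30 had an unadjusted p-value below 0.05, beside 20.9% of all genes tested, and the list median was -0.15 beside 0.015 over all genes tested. Of all genes tested, 3.23% fell with all libraries and 0.576% without replicate 4.

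Other genes that fell in both fits are given by name. Mest, an imprinted gene expressed from the paternal allele, measured 749, 719.5, 971 and 472 CPM in MPTP-SU+T and 1754, 1267, 1298 and 1971 CPM in MPTP-Veh. No MPTP-SU+T library reached the lowest MPTP-Veh library, and the log2 fold change was -1.11 ± 0.22 (SE) with adjusted p = 0.0226, or -0.98 ± 0.21 with adjusted p = 0.0126 without replicate 4. Copg2os2, an antisense transcript of the neighbouring gene Copg2, had log2 fold changes of -1.13 with all libraries and -1.03 without replicate 4. It was picked out after its values were seen, and the sources do not say whether counting used the strand. Nefm, the medium neurofilament chain, measured 428, 485, 711 and 468 CPM against 1042, 762, 796 and 2506 CPM, and Nefh, the heavy chain, 371, 401, 540.2 and 403 CPM against 712, 611, 613 and 821 CPM in MPTP-Veh. Neither gene overlapped between the groups. Their log2 fold changes were -1.29 ± 0.30 (SE) with adjusted p = 0.0351 and -0.68 ± 0.17 (SE) with adjusted p = 0.0379, and without replicate 4 -0.73 ± 0.19 with adjusted p = 0.0333 and -0.59 ± 0.16 with adjusted p = 0.0400. Tceal5, a small neuronal protein encoded on the X chromosome, fell by 0.88 and 0.68 on the log2 scale. Sod1 encodes the cytosolic copper and zinc superoxide dismutase. It measured 129, 143, 157 and 118 CPM in MPTP-SU+T and 223, 198, 197 and 394 CPM in MPTP-Veh, again without overlap, with a log2 fold change of -0.89 ± 0.17 (SE) with adjusted p = 0.0232 and of -0.59 ± 0.10 with adjusted p = 0.00301 without replicate 4. Fra10ac1 fell by 0.93 and 0.76. Atp6v0c-ps2, a pseudogene of a proton pump subunit, fell by 1.31 and 0.89, and its reads may be shared with the parent gene.

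Among named genes at a mean of 1 CPM or more in either group, the 5 largest falls with all libraries, of those called in both fits, were all in genes of the liver. Without replicate 4 the fitted fall of Pomc, a pituitary hormone gene, was the third in size. Alb, serum albumin, measured 0.148, 0, 0.113 and 0 CPM in MPTP-SU+T and 12.4, 7.71, 9.33 and 154 CPM in MPTP-Veh. Apob, the protein of low-density lipoprotein particles, had 0 counts in all 4 MPTP-SU+T libraries and 3.96, 2.61, 2.71 and 41.4 CPM in MPTP-Veh. Against a floor of 3 counts over the 4 MPTP-SU+T libraries together, Apob was at least 222-fold lower in MPTP-SU+T. The same bound was at least 178-fold for Mup2 and 141-fold for Mup1, both major urinary proteins with near-identical copies whose reads may be shared, at least 109-fold for Mug1 and 102-fold for Pzp, both protease inhibitors of plasma. Without replicate 4 these bounds are smaller, at 65.0-fold for Apob, 56.4-fold for Mup2, 35.8-fold for Mup1, 32.5-fold for Mug1 and 27.2-fold for Pzp. Of 22 genes of the liver list tested, Ttr among them, 20 fell in the fit with all libraries and none rose, and without replicate 4, 20 of 23 fell. These lists were written after the counts had been seen. Of the 92 genes that fell in both fits, 22 were on the liver, lung or pituitary lists. Pomc, the precursor of pituitary hormones that is also made in the hypothalamus, measured 1.26, 0.193, 0.680 and 1.54 CPM in MPTP-SU+T and 655, 4.12, 2.59 and 3.95 CPM in MPTP-Veh, so that MPTP-Veh replicate 1 carried almost all of it.

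Genes that rose were fewer. Values in parentheses after a gene are log2 fold changes of MPTP-SU+T minus MPTP-Veh, with all libraries first. Zfyve26, or spastizin, which takes part in lysosome reformation, measured 14.5, 14.3, 14.6 and 15.2 CPM in the MPTP-SU+T libraries and 8.94, 9.08, 10.1 and 6.11 CPM in the MPTP-Veh libraries. All 4 treated values lay above the highest MPTP-Veh value, and the log2 fold change was 0.77 ± 0.13 (SE) with adjusted p = 0.0157, with 0.64 ± 0.10 with adjusted p = 0.00212 without replicate 4. Ankib1, a ubiquitin ligase, measured 66.5, 52.7, 45.9 and 54.7 CPM against 36.7, 37.1, 32.9 and 21.1 CPM, and its log2 fold change was 0.78 ± 0.16 (SE) with adjusted p = 0.0236, or 0.63 ± 0.12 with adjusted p = 0.00864 without replicate 4. Tiparp, a mono-ADP-ribosyltransferase known as a target of the aryl hydrocarbon receptor, measured 19.9, 17.5, 12.2 and 18.5 CPM against 6.996, 8.23, 11.7 and 2.07 CPM. Its groups were separated by a narrow gap, between the lowest MPTP-SU+T library and MPTP-Veh replicate 3, and its log2 fold change was 1.21 ± 0.29 (SE) with adjusted p = 0.0379, or 0.92 ± 0.18 with adjusted p = 0.00899 without replicate 4.

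Further genes that rose in both fits are given by name. Pcdhb11, a clustered protocadherin, measured 3.19, 4.38, 3.46 and 3.36 CPM in MPTP-SU+T and 1.55, 2.16, 1.93 and 1.41 CPM in MPTP-Veh, with log2 fold changes of 1.02 with all libraries and 0.93 without replicate 4. Cdh8, a classical cadherin of neurons, measured 70.7, 65.2, 47.0 and 66.0 CPM against 35.3, 46.3, 41.8 and 14.2 CPM in MPTP-Veh. In both genes the 4 and 4 libraries did not overlap. The log2 fold change of Cdh8 was 0.85 ± 0.23 (SE) with adjusted p = 0.0458, and without replicate 4 it was 0.60 ± 0.14 with adjusted p = 0.0170. Il1rapl1, a synaptic adhesion receptor, had log2 fold changes of 1.04 with all libraries and 0.80 without replicate 4. Slc2a13, the proton-coupled transporter of myo-inositol, measured 97.3, 94.4, 68.4 and 99.9 CPM against 45.9, 54.6, 61.1 and 13.4 CPM, a log2 fold change of 1.04 ± 0.29 (SE) with adjusted p = 0.0463 that was 0.74 ± 0.16 with adjusted p = 0.0122 without replicate 4. Cbln4, a secreted organizer of synapses, measured 54.8, 57.1, 24.1 and 54.2 CPM against 20.0, 25.7, 19.9 and 10.4 CPM, so that MPTP-SU+T replicate 3 lay within the MPTP-Veh range (log2 fold changes 1.32 with all libraries and 1.12 without replicate 4). Tex15, a gene of the male germ line, overlapped in the same way, at 2.44 to 5.18 CPM in MPTP-SU+T and 0.282 to 2.57 CPM in MPTP-Veh. The remaining rising genes named by rank were A2m, the plasma protease inhibitor alpha-2-macroglobulin (0.77, or 0.78 without replicate 4), Zc3h12c, an RNase of the regnase family (0.77, or 0.59 without replicate 4), Styx, a pseudophosphatase (0.90, or 0.72 without replicate 4), Dhx32, a helicase (0.90, or 0.69 without replicate 4), Haus2, a subunit of the augmin complex of the spindle (0.85, or 0.60 without replicate 4), and Lypla1, a depalmitoylating thioesterase (0.84, or 0.59 without replicate 4).

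**Figure D3:**
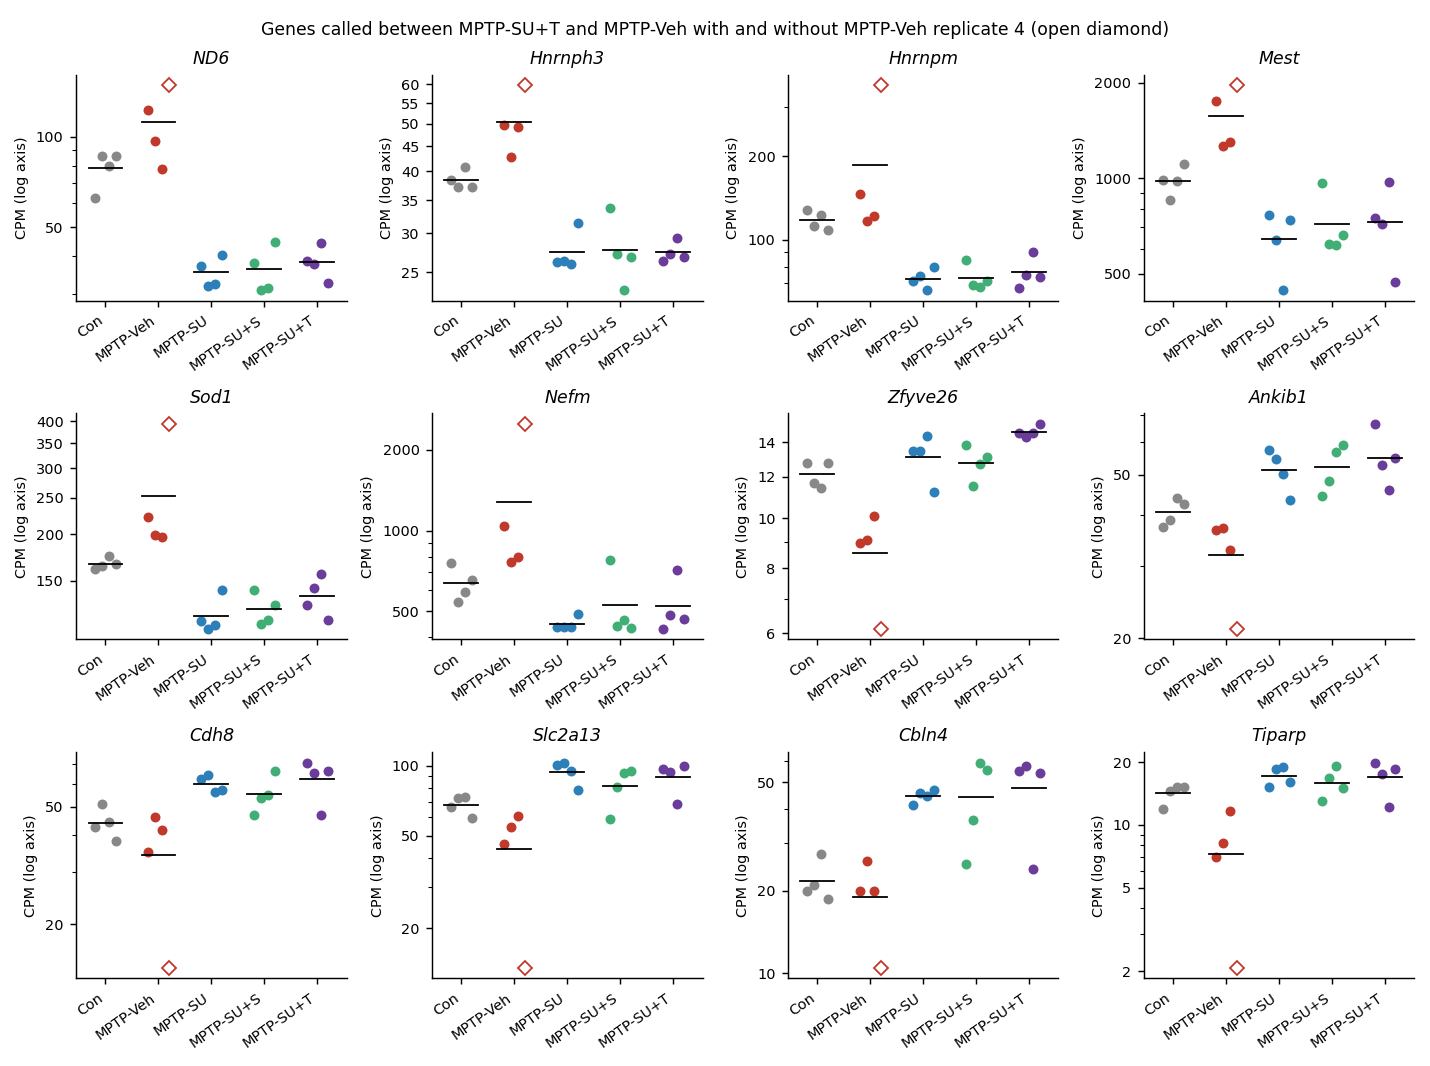
CPM on log axes of 12 genes called between MPTP-SU+T and MPTP-Veh in both fits, in each of the 20 midbrain libraries by group. Points are libraries, black lines are group means and the open diamond is MPTP-Veh replicate 4, which is the highest MPTP-Veh library of the 6 falling genes and the lowest of the 6 rising genes. ND6 shows the 12 SUEHP-treated libraries between 30.8 and 44.7 CPM and the 8 others between 62.5 and 149 CPM.

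The Con libraries and the other SUEHP-treated libraries entered the choice of these genes through the filter on low counts, the scaling and the shared estimate of the spread. They were not part of the contrast itself. ND6 measured 62.5 to 86.2 CPM in Con, 31.8 to 40.4 CPM in MPTP-SU and 30.8 to 44.7 CPM in MPTP-SU+S, beside 32.7 to 44.2 CPM in MPTP-SU+T. Hnrnph3 measured 37.1 to 40.8 CPM in Con, 26 to 31.4 CPM in MPTP-SU and 23.0 to 33.8 CPM in MPTP-SU+S, and Sod1 162 to 175 CPM, 111 to 142 CPM and 115 to 141 CPM in the same groups. In all 3 genes every Con library lay above every SUEHP-treated library. Of the 92 genes that fell in both fits, 61 were lower in each of the 12 SUEHP-treated libraries than in any of the 8 Con and MPTP-Veh libraries, where 309 of all genes tested (1.86%) were. Of the 22 genes that rose in both fits, 2, Lypla1 and Zxdb, were higher in each of the 12 than in any of the 8, beside 172 of all genes tested (1.03%). The MPTP-SU+T and MPTP-Veh libraries that chose these genes are among the 12 and the 8. Between those 2 groups, 91 of the 92 and 20 of the 22 already did not overlap. The shares over all genes tested are therefore not a like base for these counts. Zfyve26 measured 11.4 to 12.8 CPM in Con, between MPTP-Veh and MPTP-SU+T, and Tiparp 11.9 to 15.2 CPM, which overlapped with MPTP-SU+T. The summed liver genes, Ttr left out, separated the same 12 libraries from the same 8, and their part in these counts was not tested.

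Against Con itself, MPTP-SU+T differed in 26 of 16629 genes (0.156%), 3 higher and 23 lower, and in 292 of 16831 genes (1.73%), 49 higher and 243 lower, when MPTP-Veh replicate 4 was left out of the model that estimates the spread. ND6 (-1.04 on the log2 scale, adjusted p = 0.0243) and Alb (adjusted p = 0.0370) fell there as they did against MPTP-Veh. The other falling genes included Npy, Neurod2, Camk2a, Ddn and the activity-regulated factors Egr3 and Egr4, which are abundant in cortex and hippocampus, and the 3 rising genes were Foxp2, Chrna2 and Chrna5. These were picked out after their values were seen. The summed level of 30 cortex and hippocampus markers was 1941 to 4065 CPM in Con, 1155 to 1564 CPM in MPTP-SU+T and 1229 to 1772 CPM in MPTP-Veh.

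No gene was called between MPTP-SU+T and another SUEHP-treated group in edgeR. Against MPTP-SU, the comparison that adds T0070907 and its solvent to the same SUEHP treatment, 0 of 16629 genes passed the threshold. There, 283 had an unadjusted p-value below 0.05 and the smallest adjusted p-value was 0.136. Against MPTP-SU+S the count was also 0, with 130 genes at an unadjusted p-value below 0.05. With MPTP-Veh replicate 4 left out of the model that estimates the spread, both counts stayed 0. Genes at an unadjusted p-value below 0.05 then numbered 704 and 309 of 16831. The common dispersion, edgeR's estimate of that spread, went from 0.0512 to 0.0222. In both comparisons limma-voom called 0 genes and DESeq2 called 1, the predicted gene Gm26444, which had 230 counts in 1 MPTP-SU library, 240 and 38 counts in 2 MPTP-SU+S libraries and 0 in the other libraries of the 3 groups. The precision limits what this shows. In the fit with all libraries, the 95% interval of the difference from MPTP-SU lay within a 1.5-fold change in either direction for 9193 genes (55.3%). From MPTP-SU+S it did so for 9611 genes (57.8%). Of the 114 genes called in both fits against MPTP-Veh, the interval lay within that limit for 38 and 45, a smaller share. Genes with 0 counts in both groups, such as Mup1 and Pzp, got a difference of 0 and an interval without width. They are counted as within the limit although nothing was measured, so all these counts overstate the precision. For ND6, the log2 difference from MPTP-SU was 0.11 (95% interval -0.26 to 0.48) and from MPTP-SU+S 0.08 (-0.29 to 0.45). For Th it was 0.54 (-0.39 to 1.46) from MPTP-SU, an interval that reached beyond a 1.5-fold change.

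The genes of the drug's target pathway were measured next. Pparg, which encodes the receptor that T0070907 blocks, was scarce, at 1.19, 0.967, 1.59 and 0.626 CPM in MPTP-SU+T and 1.09, 0.588, 0.843 and 0.470 CPM in MPTP-Veh. The values overlapped, and the log2 fold change was 0.53 ± 0.44 (SE) with adjusted p = 0.394. Ppara, the receptor that controls fatty acid oxidation, and Ppard, its ubiquitous relative, had log2 fold changes of 0.40 (adjusted p = 0.282) and 0.058 (adjusted p = 0.831). Rxra, the common partner, measured 26.1, 27.1, 37.5 and 28.0 CPM against 36.5, 35.9, 32.7 and 66.3 CPM (log2 fold change -0.53 and -0.24, adjusted p = 0.0752 and 0.308). Among all 17 receptors and partners tested, 0 passed the threshold in either fit, and the medians were 0.085 and 0.061. Of 44 PPAR target genes tested, 1 rose and 1 fell with all libraries, beside 0.571% and 3.23% of all genes, and the median was -0.11. Without replicate 4 none was called, 18 had an unadjusted p below 0.05, beside 20.9% of all genes, and the median was -0.034. The gene that rose was Hadhb, the beta subunit of the mitochondrial trifunctional protein of fatty acid oxidation, at 76.5, 70.02, 68.6 and 86.4 CPM against 52.5, 56.4, 58.4 and 30.4 CPM, with no overlap. Its log2 fold change was 0.61 ± 0.15 (SE) with adjusted p = 0.0379, and 0.44 ± 0.085 with adjusted p = 0.00800 without replicate 4, which is under the fold limit. Hadhb measured 54.4 to 60.2 CPM in Con, 73.8 to 88.1 CPM in MPTP-SU and 73.1 to 83.6 CPM in MPTP-SU+S. Ucp2, an uncoupling protein of the mitochondrial inner membrane, fell with all libraries (-0.81, or -0.43 without replicate 4). Cnr1, the CB1 receptor, measured 67.7, 48.8, 62.1 and 50.7 CPM against 50.4, 34.97, 59.4 and 8.46 CPM, with replicate 4 far below the rest and adjusted p = 0.247 and 0.546. Cnr2, the CB2 receptor, was too low to be tested, at 0.0567 to 0.223 CPM in MPTP-SU+T and 0 to 0.327 CPM in MPTP-Veh. Of 16 endocannabinoid genes tested, 0 were called in either fit.

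The DNA element that PPARγ pairs bind was searched for in the promoters. A direct repeat of AGGTCA with 1 base of any kind between the copies was looked for on both strands, from 250 bases before to 50 after the start of each gene, in RefSeq sequences of GRCm38.p6. Promoters on 1 chromosome were left out of the search. Of the 16629 genes tested, 12556 had a promoter at hand on the other chromosomes, and 5 of those genes (0.0398%) held the motif. Of the genes called in both fits, it was held by 0 of 17 that rose and 1 of 72 that fell. That gene is Srp54a, a copy of the gene for the 54-kDa protein of the signal recognition particle, and the motif is also found before its copy Srp54c. Both sites are shown with 8 flanking bases, on the strand of the gene, with the motif in capitals, at chr12:55080370-55080398 for Srp54a and chr12:55230276-55230304 for Srp54c. 
Srp54a: gaacactaAGGTCAAAGGTCAgctccagc
Srp54c: gaacactaAGGTCAAAGGTCAgctccagc
The same 29 bases stand before both copies. Srp54a measured 33.6, 39.9, 39.2 and 39.1 CPM in MPTP-SU+T and 65.4, 62.9, 51.1 and 63.8 CPM in MPTP-Veh (log2 fold change -0.68 ± 0.16 (SE) with adjusted p = 0.0378), whereas Srp54c, with the same motif, measured 57.6 to 64.5 CPM and 48.9 to 75.0 CPM (log2 fold change -0.017, adjusted p = 0.928). Reads of near-identical copies may be split between them, so both values are uncertain, and the match describes letters only.

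Dopaminergic genes were tested as the defining markers of the midbrain. Th, tyrosine hydroxylase, the rate-limiting enzyme of dopamine synthesis, measured 44.2, 72.7, 68.9 and 67.8 CPM in MPTP-SU+T and 17.02, 70.2, 60.1 and 109.6 CPM in MPTP-Veh. Slc6a3, the dopamine transporter, measured 67.1, 103, 110.2 and 116 CPM against 17.6, 90.9, 92.1 and 57.0 CPM in MPTP-Veh. Both genes overlapped between the groups, with MPTP-Veh replicate 1 the lowest library for each. The log2 fold change of Th was -0.016 ± 0.44 (adjusted p = 0.982) with all libraries and 0.36 ± 0.43 (adjusted p = 0.692) without replicate 4, and that of Slc6a3 was 0.62 ± 0.49 (adjusted p = 0.375). Slc18a2, the vesicular monoamine transporter, and Ddc, aromatic L-amino acid decarboxylase, had log2 fold changes of 0.48 and -0.12 (adjusted p = 0.221 and 0.781). Over the list of 31 dopaminergic neuron genes, 0 passed the threshold in either fit, and the medians were 0.03 and 0.13. The smallest adjusted p-value of that list was 0.0556 with all libraries and 0.173 without replicate 4. In the exact two-sided permutation test of 4 against 4 libraries on log2 CPM, whose smallest possible p is 0.0286, p was 0.800 for Th, 0.171 for Slc6a3, 0.114 for Slc18a2 and 0.200 for Pparg. Bdnf, a neurotrophin, measured 14.3 to 19.9 CPM in MPTP-SU+T and 13.3 to 22.0 CPM in MPTP-Veh (log2 fold change 0.07, adjusted p = 0.784). Of 24 neurotrophic factors and receptors, 0 passed in either fit.

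**Figure D4:**
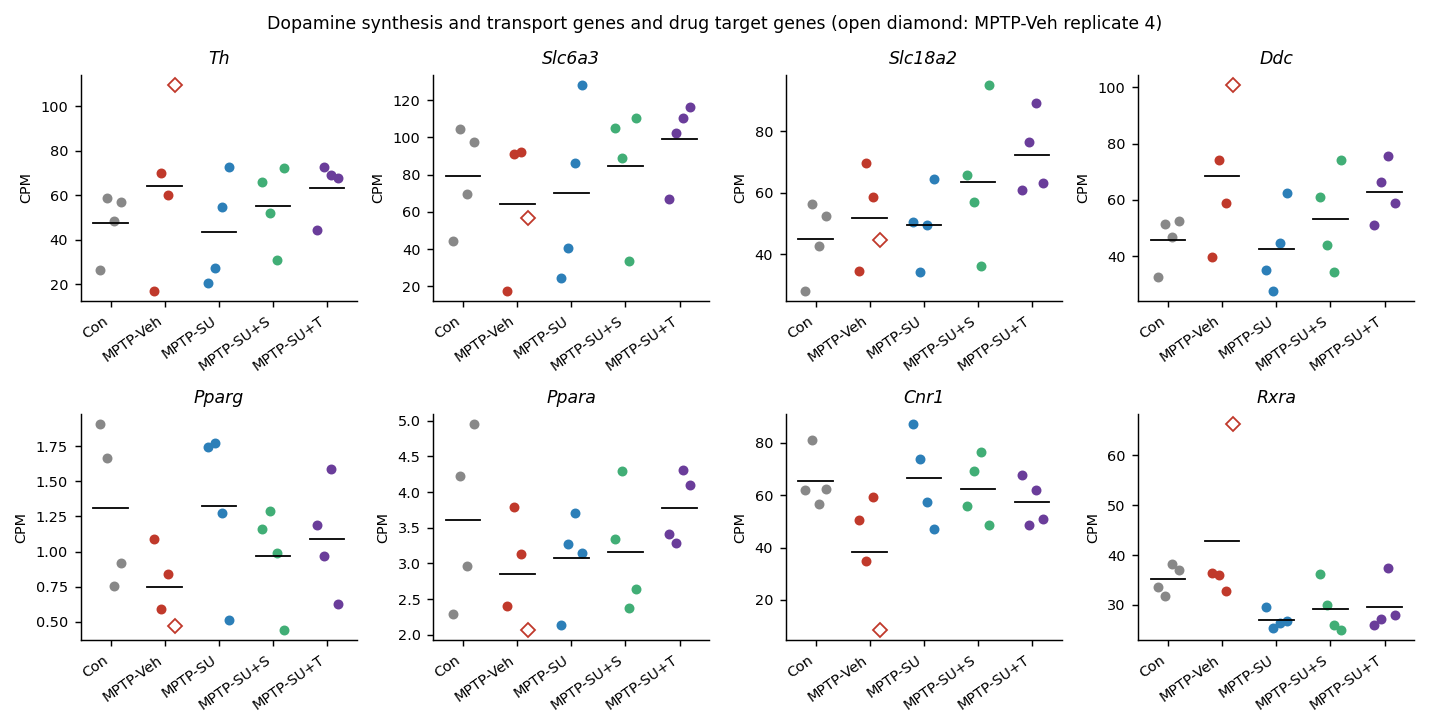
CPM of 4 dopamine synthesis and transport genes and of 4 genes for receptors or receptor partners in each of the 20 midbrain libraries by group. Points are libraries, black lines are group means and the open diamond is MPTP-Veh replicate 4. MPTP-SU+T and MPTP-Veh overlap in Th, Slc6a3, Slc18a2, Ddc, Pparg, Ppara, Cnr1 and Rxra.

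Some nuclear genes of oxidative phosphorylation were called with all libraries and none without replicate 4. Over all genes tested, 3.23% fell with all libraries and 0.576% without replicate 4. Of 38 nuclear complex I subunits tested, 5 fell and 0 rose, among them Ndufa13 (-0.92, or -0.53 without replicate 4), Ndufa5 (-0.86, or -0.46 without replicate 4), Ndufb7 (-1.75, or -0.53 without replicate 4) and Ndufa2 (-1.52, or -0.42 without replicate 4). Ndufa2 measured 43.0, 49.8, 48.0 and 48.5 CPM in MPTP-SU+T and 68.2, 63.0, 58.8 and 354 CPM in MPTP-Veh, with replicate 4 far above the rest. Without replicate 4, 0 of the 38 were called, 21 had an unadjusted p-value below 0.05, beside 20.9% of all genes, and the median moved from -0.38 to -0.23. Of 40 subunits of complexes II to V, 7 fell with all libraries, including Atp5h (-0.64, or -0.48 without replicate 4), Uqcrh (-0.77, or -0.44 without replicate 4), Atp5k (-0.99, or -0.50 without replicate 4) and Cox5b (-0.81, or -0.43 without replicate 4), and 0 without replicate 4, where the median was -0.11. Among 22 genes of inherited Parkinson's disease, 3 fell with all libraries, namely Park7 (-1.21, or -0.53 without replicate 4), the redox sensor DJ-1, Chchd2 (-0.77, or -0.38 without replicate 4), a mitochondrial intermembrane protein, and Mapt (-0.72, or -0.30 without replicate 4), tau. None of the 22 was called without replicate 4, and 6 had an unadjusted p-value below 0.05 there, beside 20.9% of all genes.

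Genes of protein synthesis, folding and breakdown had the same pattern of calls. The share of all genes tested that fell was 3.23% with all libraries and 0.576% without replicate 4, and 0.571% rose with all libraries. Of 79 cytosolic ribosomal proteins, 11 fell with all libraries, with Rps24 (-0.81, or -0.49 without replicate 4), Rpl14 (-0.62, or -0.37 without replicate 4) and Rpl11 (-0.67, or -0.39 without replicate 4) among them, and 0 without replicate 4, where 38 had an unadjusted p-value below 0.05, beside 20.9% of all genes. Of 39 proteasome subunits, 6 and 0 fell, including Sem1 (-0.96, or -0.53 without replicate 4), Psmd7 (-0.96, or -0.47 without replicate 4), Psmc5 (-1.09, or -0.47 without replicate 4) and Psme2 (-0.78, or -0.39 without replicate 4). Of 38 chaperones, 3 and 0 fell, namely Dnajc8 (-0.61, or -0.50 without replicate 4), Hspa9 (-0.60, or -0.44 without replicate 4) and Hsp90aa1 (-0.73, or -0.33 without replicate 4). Of the unfolded protein and stress response genes, 5 of 24 fell with all libraries and 0 of 25 without replicate 4, including Ddit3 (-1.04, or -0.56 without replicate 4), which encodes the stress factor CHOP, Calr (-0.80, or -0.41 without replicate 4), calreticulin, Atf5 (-1.92, or -0.57 without replicate 4) and Creld2 (-0.996, or -0.50 without replicate 4). Among 31 NRF2 pathway and antioxidant genes, Gclm, the modifier subunit of glutamate-cysteine ligase, rose (0.70, or 0.56 without replicate 4) and 4 fell, including Sod1 and Sod3 (-0.60, or -0.47 without replicate 4). Gclm measured 30.5, 26.8, 25.8 and 28.1 CPM in MPTP-SU+T and 16.2, 19.3, 21.1 and 11.5 CPM in MPTP-Veh without overlap, and 21.3 to 24.1 CPM in Con. Without replicate 4, Sod1 was the only gene of this list called.

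Noncoding and axonal transcripts were called in part, where 3.23% of all genes tested fell with all libraries and 0.576% without replicate 4. Of 21 snoRNA host genes, 3 fell with all libraries, Ncl, Epb41l4aos (-1.47, or -0.60 without replicate 4) and Snhg8 (-0.69, or -0.41 without replicate 4), and 2 without replicate 4, Ncl and Gas5 (-0.51, or -0.63 without replicate 4), with medians of -0.35 and -0.31. Of 12 nuclear long noncoding RNAs tested, 3 fell with all libraries, Meg3 (-0.85, or -0.43 without replicate 4), Mirg (-0.75, or -0.45 without replicate 4) and Miat (-0.94, or -0.36 without replicate 4), and 0 without replicate 4. Meg3 and Mirg are transcribed from one imprinted cluster. Among 25 neurofilament and axon genes, 8 fell with all libraries, including Vamp2 (-0.64, or -0.39 without replicate 4), a synaptic vesicle SNARE, and Sncg (-1.64, or -0.75 without replicate 4), gamma-synuclein, and 2 without replicate 4, which were Nefm and Nefh.

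Receptors and channels were compared with all genes tested, of which 3.8% were called with all libraries and 0.814% without replicate 4. For 25 GABA receptor and synthesis genes the median log2 fold change was 0.31 with all libraries and 0.12 without replicate 4, and for 32 glutamate receptors and transporters it was 0.22 and 0.14. None of the 57 was called in either fit. Of 57 clustered protocadherins tested, 46 had a positive log2 fold change, the median was 0.26 and then 0.16, and Pcdhb11 was the only call in both fits. None of 56 potassium channel subunits was called, and of 32 sodium and calcium channel subunits only Cacng7 fell, with all libraries (-0.85, or -0.46 without replicate 4). The circadian clock list (23 genes) and the immediate early gene list (33 and 34 genes) had 0 calls, with Fos at 8.38 to 11.4 CPM in MPTP-SU+T and 6.68 to 13.2 CPM in MPTP-Veh (adjusted p = 0.740).

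Calls among inflammatory and glial genes are set beside those over all genes tested, 3.8% with all libraries and 0.814% without replicate 4. Of 50 inflammatory signalling genes tested, Traf6, a ubiquitin ligase of Toll-like receptor signalling, rose with all libraries (0.60, or 0.40 without replicate 4), and 0 were called without replicate 4, where the median was 0.026. Aif1, which encodes the microglial protein Iba1, measured 3.12, 3.22, 3.40 and 3.53 CPM in MPTP-SU+T and 5.67, 4.90, 3.85 and 17.9 CPM in MPTP-Veh. Its fall with all libraries (-1.26, adjusted p = 0.0477) rested on replicate 4 and was not called without it (-0.53, adjusted p = 0.146). Itgam, a microglial integrin, had a log2 fold change of the other sign with all libraries (0.52, adjusted p = 0.0693). There too replicate 4 lay apart, at 5.17 CPM beside 11.1 CPM in the next lowest MPTP-Veh library. Gfap, the astrocyte filament, measured 185, 268, 254 and 282 CPM against 259, 305, 228 and 969 CPM (adjusted p = 0.107, and 0.836 without replicate 4), and Mapk14, the kinase p38 alpha, 43.0 to 52.1 CPM against 41.4 to 96.5 CPM (adjusted p = 0.200). Of 24 microglia, 24 astrocyte and 26 myelin genes, 1, 2 and 1 fell with all libraries, namely Aif1, Apoe (-1.43, or -0.44 without replicate 4), S100b (-1.15, or -0.43 without replicate 4) and Ppp1r14a (-1.27, or -0.42 without replicate 4), and 0 without replicate 4. Of 12 oligodendrocyte precursor markers, 0 were called with all libraries and Lhfpl3 (1.04, or 0.70 without replicate 4) rose without replicate 4. Summed over their list, microglia markers measured 485 to 571 CPM in MPTP-SU+T and 478 to 731 CPM in MPTP-Veh. Of 35 tight junction genes, 2 fell with all libraries, Rab13, a small GTPase (-1.12, or -0.71 without replicate 4), and Cgn, cingulin (-0.95, or -0.58 without replicate 4), and Rab13 alone without replicate 4. No blood vessel, leptomeningeal or choroid plexus marker was called in either fit, and of the red blood cell genes Hba-a1 fell with all libraries only (-2.18, or -0.24 without replicate 4).

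Markers of neighbouring brain regions were also measured, with 3.23% of all genes tested falling with all libraries and 0.576% without replicate 4. Of 20 thalamus markers, 18 had a positive log2 fold change, with medians of 0.88 and 0.77 beside -1.3e-05 and 0.015 over all genes tested, and 0 passed the threshold in either fit. Their summed level was 1141 to 3450.2 CPM in MPTP-SU+T and 1234 to 1900.1 CPM in MPTP-Veh, so the ranges overlapped. Of 28 cortex and hippocampus markers tested with all libraries, 1 fell, Nrgn, neurogranin (-1.82, or -1.05 without replicate 4), with medians of -0.40 and -0.34. Gata3, a factor of midbrain and serotonergic neurons, fell with all libraries only (-1.55, or -0.78 without replicate 4). The part of tissue composition in the genes described above was not tested.

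**Figure D5:**
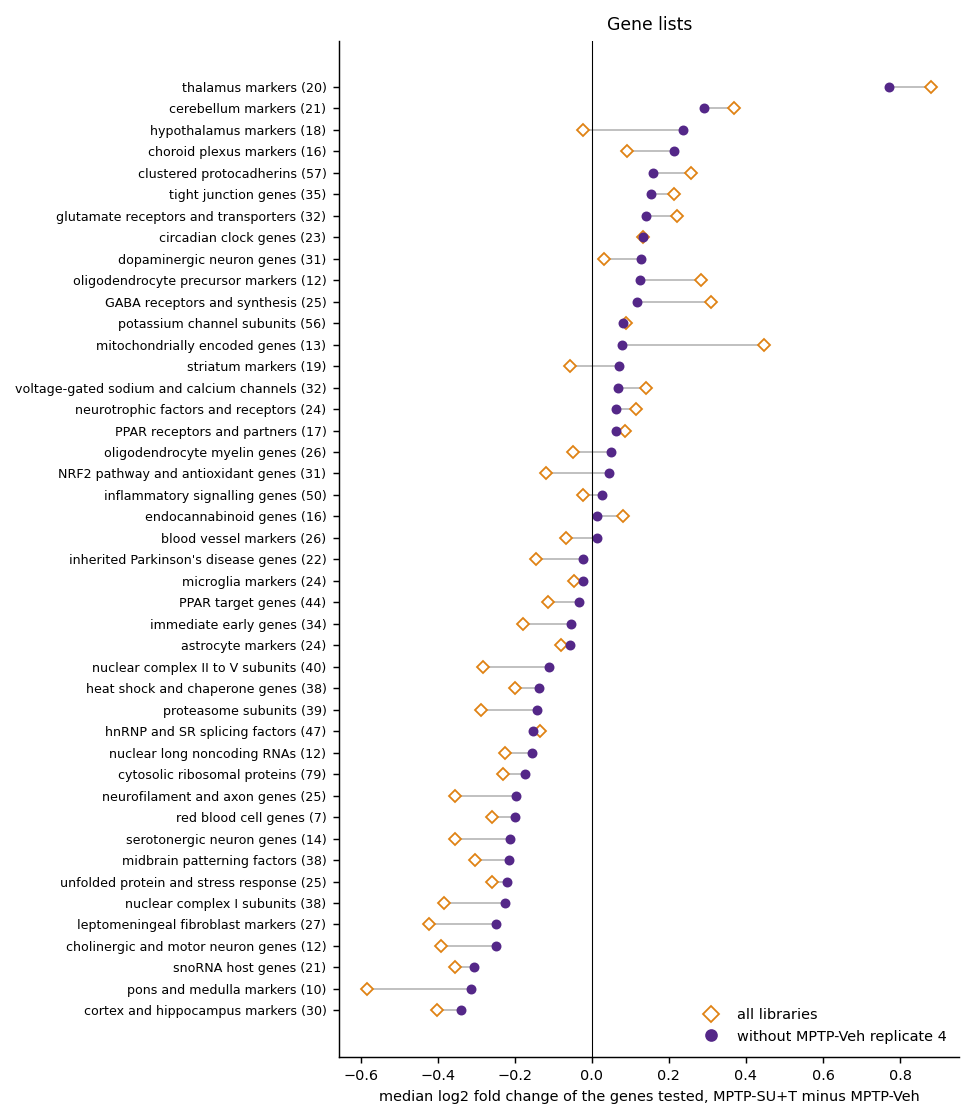
Median log2 fold change of MPTP-SU+T minus MPTP-Veh over the tested genes of 44 gene lists, the anterior pituitary, liver and lung lists with their far lower medians left out, with all libraries (open diamonds) and without MPTP-Veh replicate 4 (filled circles). Numbers in parentheses are genes tested without replicate 4, and lists are ordered by the filled circles. Of the lists shown, thalamus markers lie highest at 0.77 and cortex and hippocampus markers lowest at -0.34 without replicate 4.

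The genes called only with replicate 4 that had the smallest p-values kept adjusted p-values below 0.05 without it and missed the fold limit. Among those that fell, Sdccag8 (-0.73, or -0.58 without replicate 4), Pdcd5 (-0.61, or -0.55 without replicate 4), Dnajc8, Hnrnpa1 and Ik (-0.65, or -0.51 without replicate 4) had adjusted p-values of 0.00212, 0.00330, 0.00212, 0.00214 and 0.00212 without it. Pdcd5 measured 26.7, 29.5, 28.7 and 25.1 CPM in MPTP-SU+T and 40.9, 39.0, 41.3 and 46.5 CPM in MPTP-Veh, with replicate 4 close to the others. Among those that rose, Gclm, Nup160 (0.64, or 0.54 without replicate 4), a nucleoporin, Tor1aip2 (0.71, or 0.52 without replicate 4), a cofactor of torsin ATPases, Smg8 (0.76, or 0.57 without replicate 4), a factor of nonsense-mediated decay, and Gpn3 (0.66, or 0.57 without replicate 4) had adjusted p-values of 0.00689, 0.0175, 0.00263, 0.00590 and 0.0299 without it. In the reverse direction 23 genes were called only without replicate 4, 18 higher and 5 lower, the latter Gas5, Xpa, Fgb, Gh and Prl.

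The sequence content of a gene went with its change, more so with replicate 4 than without it. For the 3051 genes with the lowest GC content (median 41.3%) the median log2 fold change was 0.31, and for the 3051 with the highest (median 58.0%) it was -0.38. Without replicate 4 these medians were 0.13 and -0.059. By transcript length, the 3051 shortest (median 1336 bases) had a median of -0.23 and the longest (median 6799 bases) of 0.17, or -0.091 and 0.089 without replicate 4. By each property, genes with a value were split into 5 bins of 3050 or 3051 genes. A value was at hand for 94.7% of the genes called in both fits. Of the 92 that fell, those with a value numbered 42, 18, 11, 8 and 7 from shortest to longest. From lowest to highest GC content they numbered 19, 13, 17, 18 and 19, with similar counts at both ends. The 22 that rose numbered 12, 4, 4, 2 and 0 from lowest to highest GC content. From shortest to longest the rising genes numbered 0, 2, 4, 6 and 10. Removing a GC and length trend from each library, an alternative chosen after seeing the data, gave counts of 795 and 135, of which 438 and 94 were among the 632 and 137.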

How the data were processed

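Polyadenylated midbrain RNA was sequenced from CORALL RNA-Seq V2 libraries. Per the study's methods and the submitters' processing notes, the authors trimmed reads with fastp, aligned them with STAR to GRCm39 and quantified them with Salmon, and the notes also name GATK. Versions, annotation and strand setting are not given in the sources used here. The deposited tables hold estimated counts per gene symbol, whole numbers that were not normalized, for 40213 symbols.

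Counts of all 20 midbrain libraries were fitted in R 4.3.3 with edgeR 4.0.16 (filterByExpr, TMM, quasi-likelihood test, 1 term for group), and again without MPTP-Veh replicate 4. Limma 3.58.1 and DESeq2 1.42.0 served as alternatives. A gene was a DEG at an adjusted p-value under 0.05 if its change exceeded 1.5-fold. CPM uses TMM library sizes, and log2 CPM a prior count of 2. The members and the 45 gene lists were chosen with earlier results of these data known, and the liver and lung lists after the counts were seen. Genes were named as the 12 rising and 12 falling DEGs of both fits with the smallest p-values and no overlap, the 5 largest changes each way with a mean of at least 1 CPM, receptor, dopaminergic and glial genes of the study, up to 4 called genes per list, and 5 each way of those lost without replicate 4, passing over predicted genes. For 91.7% of genes a GENCODE transcript, the longest of the symbol, gave GC content and length. The fits were tested on simulated counts. Spinal cord libraries were not analysed here, and 1 gene that met the rule is not reported here.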

Additional observations from a re-analysis of the deposited data

Results flagged for a closer look

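The values below each lay farther from the nearest library of their group than Dixon's 95% critical value for 4 samples allows, which chance gives in about 1 of 20 groups. That rate holds for values chosen without regard to the data. Most genes here were named because they were called, some of them only with replicate 4. Values of different genes in 1 library are also not independent, so the counts below are not a test. In MPTP-Veh, 113 values were examined, and replicate 4 was the distant library in 53 cases as the highest and in 5 as the lowest. It was the highest for Aif1 at 17.9, Alb at 154, Apob at 41.4, Apoe at 7629, Atf5 at 90.8, Atp5k at 248, Atp6v0c-ps2 at 233, Calr at 1092, Cgn at 27.2, Chchd2 at 427, Cox5b at 531, Creld2 at 34.3, Ddit3 at 81.7, Epb41l4aos at 19.6, Gata3 at 133, Gfap at 969, Hba-a1 at 1492, Hnrnpm at 362, Hsp90aa1 at 4770, Mapt at 1294, Meg3 at 8911, Miat at 489.9, Mirg at 46.8, Mug1 at 20.0, Mup1 at 27.2, Mup2 at 32.2, Ncl at 1075, Ndufa13 at 248, Ndufa2 at 354, Ndufa5 at 230.5, Ndufb7 at 405, Nefm at 2506, Park7 at 329, Ppp1r14a at 167, Psmc5 at 592, Psmd7 at 307, Psme2 at 34.97, Pzp at 19.6, Rbm17 at 91.8, Rbm25 at 347, Rpl11 at 323, Rpl14 at 433, Rxra at 66.3, S100b at 1018, Sem1 at 150.5, Sncg at 192, Snhg8 at 20.7, Sod1 at 394, Ucp2 at 78.6, Uqcrh at 414 and Vamp2 at 1222 CPM. For the summed liver and lung genes it was the highest, at 538 and 45.9 CPM. It was the lowest for Itgam at 5.17, Nup160 at 7.14, Tor1aip2 at 22.3 and Traf6 at 6.96 CPM, and on the first principal component, at -149.7.

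The other MPTP-Veh libraries stood apart in 3 cases, replicate 1 for Pomc at 655 CPM and the summed anterior pituitary genes at 785 CPM, and replicate 3 for Bdnf at 22.0 CPM. In MPTP-SU+T, 108 values were examined. Replicate 3 was the lowest for Cbln4 at 24.1 CPM and Tex15 at 2.44 CPM and the highest for Miat at 155 CPM and Rxra at 37.5 CPM. Replicate 4 was the lowest for Dnajc8 at 69.9 CPM and Hnrnpa1 at 134 CPM and the highest for Ppard at 38.1 CPM.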

How the results depend on the processing

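The number of DEGs between MPTP-SU+T and MPTP-Veh, 632 with all libraries, was 1615 with DESeq2, 107 with limma-voom, 124 with library size alone as the scaling, 59 with a replicate block, 0 with the 2 groups alone and 2729 for unadjusted p-values with the fold limit. It ranged from 3 to 2456 when 1 library was left out. Without MPTP-Veh replicate 4, where it was 137, it was 35 with the 2 groups alone, 838 for adjusted p-values without a fold limit and 542 for unadjusted p-values with it, and 31 to 387 when 1 further library was left out. MPTP-Veh replicate 1 gave the 31 and MPTP-SU+T replicate 3 the 387. Against MPTP-SU and MPTP-SU+S the count of 0 became 1 and 1 with DESeq2 and 167 and 84 for unadjusted p-values with the fold limit, and it was 0 to 0 when 1 library was left out. Against Con, 26 became 180 with DESeq2, 8 with library size alone, 73 with the 2 groups alone, 692 for unadjusted p-values with the fold limit and 292 without MPTP-Veh replicate 4, and it ranged from 0 to 83 when 1 library of either group was left out, so from 0 to 292 in all. The causes of these differences were not tested.

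Replicate numbers were not taken to pair the libraries, as 1 of the 4 correlations was not above 0.1. Deviations of same-numbered libraries correlated at 0.378, 0.162, -0.0364 and 0.173, so the replicate block is given here only. The block took the call from 64 of the 108 genes that met the naming rule. Of the 4 MPTP-SU+T libraries, 3 correlated best with the MPTP-Veh library of their own number. It changed the count without replicate 4 from 137 to 136 and that against Con from 26 to 20. Of the 108 genes that met the naming rule, 94 were called with all libraries. With the GC and length trend removed, 26 of the 108 lost their call and 9 of 47 list medians moved. All 94 kept their sign in every setting, but none was called in every setting. Of 47 list medians, 35 kept their sign in every setting. No called gene reversed its direction, whereas each of the other list medians lost its sign in at least 1 setting. Total counts of 11958200 or more per library limit what can be said of genes at low CPM, such as Cnr2.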

Other observations

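Against Con, lists other than those above also lay apart from 0. The median log2 difference of MPTP-SU+T minus Con was -1.48 over 16 choroid plexus markers, -1.12 over 28 cortex and hippocampus markers and -0.85 over 27 leptomeningeal fibroblast markers, beside 0.013 over all genes tested. Summed choroid plexus markers ranged from 154 to 1437 CPM in Con, 124 to 154 CPM in MPTP-SU+T and 116 to 170.2 CPM in MPTP-Veh. The spread was widest within Con. For thalamus markers, which had the highest median against MPTP-Veh of the lists written, the median against Con was 0.73, and their sums were 1039 to 1570 CPM in Con, 1504 to 2898 CPM in MPTP-SU and 1133 to 2636 CPM in MPTP-SU+S.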
